A study of Mus musculus with 6 samples.

Results

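A set of 10 genes that mark preadipocytes and the stromal cells around them were followed in inguinal white adipose tissue (IngWAT) lacking *Hdac3* in adipocytes. They are *Pdgfra*, *Cd34*, *Ly6a*, *Dpp4*, *Pi16*, *Icam1*, *F3*, *Zfp423*, *Ebf2* and *Pdgfrb*, 10 of the 46517 genes counted, found by matching gene identifiers to GENCODE symbols on GRCm38. The rule selects by role (progenitor, committed preadipocyte and mural cell markers). RNA was sequenced from 3 floxed and 3 H3atKO samples, each a pool of 2 or 3 mice of 5 to 9 months, strain C57Bl6, on chow diet. Floxed mice carried the *Hdac3* floxed alleles and served as controls. H3atKO mice carried the same alleles and an *Adipoq*-cre transgene, in which the adiponectin promoter drives Cre recombinase. Adiponectin is made by mature adipocytes, so in this model the deletion is directed at adipocytes. The 10 genes are used as markers of stromal cells, but how much of their RNA came from adipocytes was not measured. The labels name no Cre-carrying control without floxed alleles.

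White fat grows and renews its adipocytes from fibroblast-like progenitors of the stromal vascular fraction, which carry the PDGF receptor PDGFRα together with CD34 and SCA1, the product of *Ly6a*. In mouse inguinal fat these progenitors are divided into interstitial cells that express *Dpp4* and *Pi16*, committed preadipocytes that express *Icam1*, and a population marked by CD142, the product of *F3*, for which suppression of adipocyte formation has been described. Mural cells, the pericytes and smooth muscle cells of vessel walls, carry PDGFRβ. *Zfp423* and *Ebf2* encode transcription factors, the former known for preadipocyte commitment and the white adipocyte state and the latter for beige and brown adipocyte fate. Several of these markers are shared, and *Cd34*, *Ly6a* and *Icam1* are also expressed by endothelial cells, *Dpp4* by T cells, and *Icam1* by leukocytes. Levels below are from whole tissue, where fewer cells of a type and less RNA per cell cannot be told apart.

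Between 23865507 and 35200685 reads per sample were counted on genes. Without the TMM factor described below, 3 counts amounted to between 0.0852 and 0.126 cpm, the unit in which counts are scaled to a common library size. *Hdac3* itself fell from 71.7 ± 7.61 to 20.5 ± 7.28 cpm (SD, n = 3 pools each), with no overlap between the genotypes, and the adipocyte list was high in all 6 pools (summed level 13852 to 32387 cpm). The mitochondrial genome took 6.92 to 12.9% of counts in floxed and 26.9 to 35.3% in H3atKO pools. Levels are therefore given in cpm of the library scaled with TMM, a factor estimated from the bulk of genes. This factor was 1.295 to 1.375 in floxed and 0.6632 to 0.9209 in H3atKO pools. The same count therefore stands for a lower scaled level in floxed than in H3atKO pools. Each gene's deviation from its mean over the 6 pools also followed the GC content of transcripts, differently in each pool. Deviations of a gene balance over the pools, so positive ones in some pools call for negative ones in others. The Spearman rho of deviation and GC content across 14922 genes ran from 0.8 in floxed replicate 1 to -0.711 in H3atKO replicate 3. The 3 floxed values (0.0969 to 0.8) lay above the 3 H3atKO values (-0.711 to -0.433), so this property and the genotype cannot be told apart, and values after a correction for GC content are given beside the results that they change. Floxed replicate 3 stood apart from the other floxed pools, with a lower summed adipocyte level (13852 cpm, against 26064 and 32387) and a higher macrophage level (2303 cpm, against 440 and 731). Values without it are given beside the results that it moves.

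All 10 genes passed the filter of at least 1 cpm in at least 1 sample, and the lowest count of any of them in any pool was 15. By limma voom with Benjamini-Hochberg adjustment over all 14967 genes tested, 2 of the 10 were lower in H3atKO (*Pi16* and *Pdgfrb*) and 0 were higher. Over all genes tested, 7.07% were called lower and 9.42% higher. In 3 genes (*Cd34*, *Pi16* and *Pdgfrb*) every H3atKO pool lay below every floxed pool, and in 1 gene (*F3*) every H3atKO pool lay above, where the shares over all genes were 28.6% lower and 23.1% higher. The median log2 fold change was -0.98 over the 10 genes and -0.09 over all genes, and -0.62 and -0.07 without floxed replicate 3. At an unadjusted p under 0.05 the model gave 6562 genes, and 5 of the 10 were among them (*Cd34*, *Pi16*, *F3*, *Ebf2* and *Pdgfrb*).

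Promoter sequences are shown for the gene with the largest fall (*Pi16*), the only gene with higher levels in H3atKO (*F3*), and 3 genes that were high together in floxed replicate 3 (*Pdgfra*, *Cd34* and *Dpp4*). Each runs 5′ to 3′ on the gene's strand, over 250 bases before and 50 bases after a RefSeq transcript start on GRCm38.p6. Capitals mark matches on either strand to 5 sets of letters, which do not overlap each other in these windows. They are the letters TATAAA, known as a TATA box, the letters GGGCGG of a GC box, the letters CCAAT of the box named after them, the letters TGANTCA of an AP-1 site and the letters CCCNNGGG of an EBF core.
Pi16 chr17:29318632-29318931 (+): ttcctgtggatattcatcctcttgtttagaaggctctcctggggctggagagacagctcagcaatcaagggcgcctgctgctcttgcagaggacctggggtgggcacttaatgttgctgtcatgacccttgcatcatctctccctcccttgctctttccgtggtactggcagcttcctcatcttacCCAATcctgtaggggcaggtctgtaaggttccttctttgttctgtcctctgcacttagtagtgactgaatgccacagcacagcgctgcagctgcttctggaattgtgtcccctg
F3 chr3:121723287-121723586 (+): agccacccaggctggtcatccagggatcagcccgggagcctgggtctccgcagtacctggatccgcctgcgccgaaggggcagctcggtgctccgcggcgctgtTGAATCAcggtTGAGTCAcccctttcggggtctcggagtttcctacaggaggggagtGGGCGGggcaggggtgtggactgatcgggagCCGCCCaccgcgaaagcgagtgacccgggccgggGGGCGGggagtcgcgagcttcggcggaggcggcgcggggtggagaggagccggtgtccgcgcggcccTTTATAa
Pdgfra chr5:75152001-75152300 (+): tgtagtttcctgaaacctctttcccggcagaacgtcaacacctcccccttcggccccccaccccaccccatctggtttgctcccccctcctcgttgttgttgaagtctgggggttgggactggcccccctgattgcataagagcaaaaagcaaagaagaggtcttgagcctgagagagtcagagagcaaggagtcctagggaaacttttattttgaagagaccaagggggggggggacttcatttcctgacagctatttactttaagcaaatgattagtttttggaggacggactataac
Cd34 chr1:194938571-194938870 (+): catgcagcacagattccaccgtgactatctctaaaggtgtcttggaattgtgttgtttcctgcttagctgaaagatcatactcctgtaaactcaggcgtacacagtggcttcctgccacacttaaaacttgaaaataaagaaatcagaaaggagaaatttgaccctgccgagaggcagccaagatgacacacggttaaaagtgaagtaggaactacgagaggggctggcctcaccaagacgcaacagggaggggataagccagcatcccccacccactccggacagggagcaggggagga
Dpp4 chr2:62412182-62412481 (-): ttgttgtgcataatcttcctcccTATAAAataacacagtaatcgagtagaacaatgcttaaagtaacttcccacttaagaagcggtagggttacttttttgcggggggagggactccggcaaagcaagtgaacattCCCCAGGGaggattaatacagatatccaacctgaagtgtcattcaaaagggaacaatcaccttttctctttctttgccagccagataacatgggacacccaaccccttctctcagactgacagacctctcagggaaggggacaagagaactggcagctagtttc

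These 5 windows differed in base composition. The *F3* window had a GC content of 70.3% and 32 CpG dinucleotides, against medians of 52.7% and 7 over the 32851 windows of this length, and held 3 matches to the GC box letters and 2 neighbouring matches to the AP-1 letters that begin at positions -146 and -135 from the start. It also held TATA letters on the opposite strand, at position 44 after the start. The other 4 windows had a GC content of 45.3 to 53.3% and 3 to 7 CpG dinucleotides. No match to any of the 5 letter sets was present in the *Pdgfra* and *Cd34* windows, and the *Pi16* window held 1 CCAAT box at position -64. The *Dpp4* window held an EBF core at position -114 and TATA letters at position -227. Over all windows, TATA letters were present in 13.6%, GC boxes in 35.7%, CCAAT boxes in 37.4%, AP-1 letters in 7.81% and EBF cores in 13.7%. Promoters were matched for 7 of the 10 genes. *Ly6a* and *Ebf2* had no entry, and chromosome 18, which holds *Pdgfrb*, was left out of the matching. The *Pi16* start used here lies 1202 bases from the start of the gene in GENCODE M21.

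*Pdgfra* (chr5:75152292-75198215, GRCm38), the receptor used to sort fibroblast-like progenitors, did not pass the test. Its level was 65.3, 81.5 and 240 cpm in floxed replicates 1 to 3 and 58.9, 55.1 and 90.8 cpm in H3atKO replicates 1 to 3. The highest floxed pool stood 3.29-fold above the mean log2 level of the other floxed pools, and the genotypes overlapped. H3atKO differed from floxed by a log2 fold change of -0.71 (SE 0.50, 95% interval -1.88 to 0.46, adjusted p = 0.293, limma voom), and by -0.13 without floxed replicate 3.

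*Cd34* (chr1:194938819-194961279) encodes a sialomucin of progenitor and endothelial cell surfaces. It stood at 113, 132 and 409 cpm in the floxed and at 71.7, 84.3 and 84.5 cpm in the H3atKO pools. Every H3atKO pool was lower than every floxed pool, and the 3 H3atKO pools lay close together. With a log2 fold change of -1.20 (SE 0.48), *Cd34* did not pass (adjusted p = 0.0979, limma voom). It passed with the replicate number as a block (-1.18, adjusted p = 0.0363) and after GC correction (-1.99, adjusted p = 0.026). Without floxed replicate 3 the difference was -0.61 (adjusted p = 0.0742), with the H3atKO pools still lower than the remaining floxed pools. The endothelial list moved the same way, with summed levels of 669 to 1127 cpm in floxed and 451 to 597 cpm in H3atKO pools and 3 of its 8 genes called lower, and its part in the *Cd34* result was not tested.

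*Ly6a* (chr15:74994877-74998031), which encodes the surface antigen SCA1, was at 153, 151 and 474 cpm in floxed and 161, 98.2 and 73.8 cpm in H3atKO pools. H3atKO replicate 1 lay above floxed replicates 1 and 2, while the other H3atKO pools lay below all floxed pools. Its log2 fold change was -1.07 (SE 0.51, 95% interval -2.25 to 0.11, adjusted p = 0.142, limma voom), and -0.52 without floxed replicate 3. *Ly6a* belongs to a family of similar genes, and alignments of reads with more than 1 place, which were given to no gene, made up 28.3 to 35.2% in floxed and 43.8 to 45.5% in H3atKO pools. How many reads of *Ly6a* were among them was not measured.

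**Figure D1:**
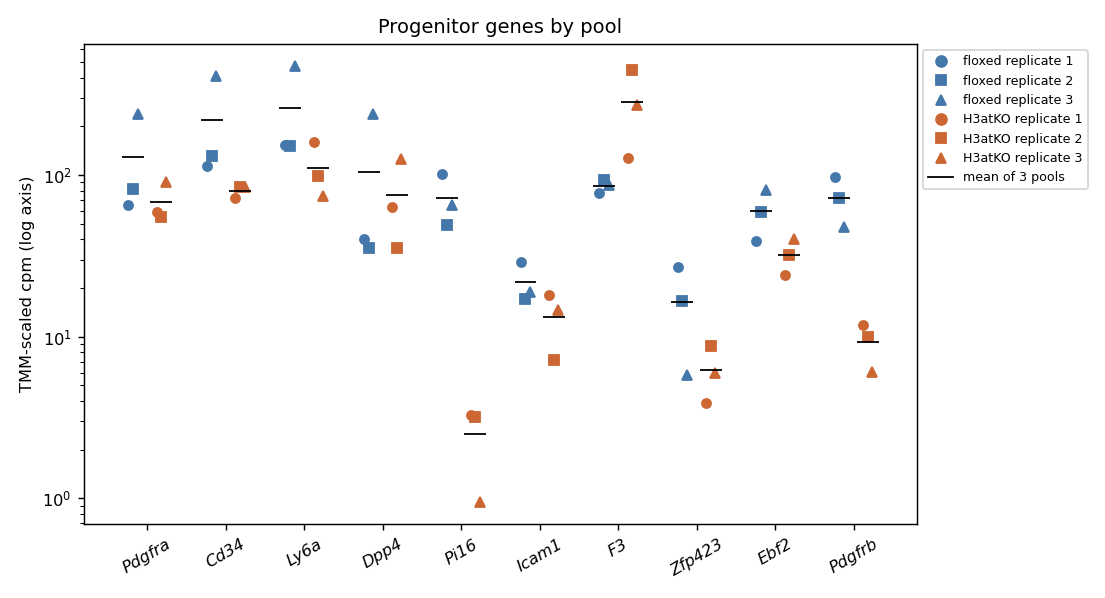
Levels of the 10 genes in TMM-scaled cpm (log axis) in 3 floxed (blue) and 3 H3atKO (orange) pools, with the replicate number as the marker shape and black lines at the means. All *Pi16* and *Pdgfrb* levels in H3atKO lie below the floxed levels, all *F3* levels lie above, and floxed replicate 3 is highest for *Pdgfra*, *Cd34*, *Ly6a*, *Dpp4* and *Ebf2*.

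The 2 interstitial progenitor markers gave unlike values, and the difference between them was not tested. *Dpp4* (chr2:62330073-62412231), a serine peptidase of the cell surface, was at 40.2, 35.5 and 239 cpm in floxed and at 63.2, 35.4 and 126 cpm in H3atKO pools. In both genotypes replicate 3 was the highest pool, and the genotypes overlapped throughout. *Dpp4* had a log2 fold change of -0.11 (SE 0.79, adjusted p = 0.925, limma voom) with a 95% interval of -1.94 to 1.73, which leaves room for a large change in either direction. It was 0.79 (SE 0.49, adjusted p = 0.221) without floxed replicate 3 and 0.29 without H3atKO replicate 2. After GC correction it was -0.97 (adjusted p = 0.336), and -0.96 (adjusted p = 0.0632) with the replicate block as well.

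*Pi16* (chr17:29317680-29330593), which encodes a peptidase inhibitor, was at 102, 49 and 65.1 cpm in floxed and at 3.29, 3.21 and 0.948 cpm in H3atKO pools. These levels rest on 4626, 2039 and 2679 counts in floxed and 80, 63 and 15 counts in H3atKO pools. No H3atKO pool came near a floxed pool. *Pi16* fell by 4.91 on the log2 scale (SE 0.58, adjusted p = 0.00946, limma voom), which is 30.1-fold lower. After GC correction it was -3.64 (SE 0.48, adjusted p = 0.0146), and without floxed replicate 2 it was -5.16 with an adjusted p of 0.0516. The T cell list, whose cells can express *Dpp4*, had a summed level of 8.06 to 57.3 cpm in floxed and 16.4 to 165 cpm in H3atKO pools with none of its 8 genes at 0 in all pools, and its part in the *Dpp4* levels was not tested. In the order of the pools the T cell sums were 57.3, 8.06 and 11.1 cpm in floxed and 165, 16.4 and 146 cpm in H3atKO.

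*Icam1* (chr9:21015985-21028817), an adhesion receptor for leukocyte integrins and the marker of committed preadipocytes, was at 29.2, 17 and 18.8 cpm in floxed and at 18.2, 7.14 and 14.7 cpm in H3atKO pools. H3atKO replicate 1 lay within the floxed range, and the other H3atKO pools lay below it. The difference of -0.75 (log2, SE 0.42) did not pass (adjusted p = 0.199, limma voom). With the replicate block it was -0.74 with an adjusted p of 0.044, whereas after GC correction the direction turned to 0.63 (SE 0.43, adjusted p = 0.35). The transcript has a GC content of 55.4%.

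*F3* (chr3:121723537-121735048) encodes tissue factor, the cell surface receptor that starts coagulation. Its levels were 77.8, 93.3 and 86.2 cpm in floxed and 127, 449 and 270 cpm in H3atKO pools. The floxed pools were close together, whereas the H3atKO pools were spread widely and all lay above them. This was a log2 fold change of 1.54 (SE 0.44, 2.91-fold) with an adjusted p of 0.0507 by limma voom, just outside the threshold of 0.05. It passed with the replicate block (1.52, adjusted p = 0.0106), with edgeR's quasi-likelihood test (1.72, adjusted p = 0.0309) and with DESeq2 (1.79, adjusted p = 0.00165), and did not pass after GC correction (1.19, adjusted p = 0.119). The difference was 1.06 without H3atKO replicate 2, the highest pool. On cpm without the TMM factor the genotypes overlapped and the log2 fold change was 0.69 (adjusted p = 0.159).

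*Zfp423* (chr8:87661810-87959595), a zinc finger factor, was at 27.1, 16.7 and 5.81 cpm in floxed and at 3.91, 8.72 and 5.94 cpm in H3atKO pools. Floxed replicates 1 and 2 were above all other pools, and floxed replicate 3 lay among the H3atKO pools. The difference of -1.26 (log2, SE 0.70) did not pass (adjusted p = 0.193, limma voom). Without floxed replicate 3 it was -1.87 with an adjusted p of 0.0143, and after GC correction it turned to 0.41 (SE 0.44, adjusted p = 0.556). *Zfp423* had the highest transcript GC content of the 10 genes, 56.7%.

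*Ebf2* (chr14:67233292-67430918), a helix-loop-helix factor, was at 39.1, 59.2 and 80.9 cpm in floxed and at 24, 32.2 and 40.3 cpm in H3atKO pools. Replicate 1 was the lowest and replicate 3 the highest pool in both genotypes, and H3atKO replicate 3 lay just above floxed replicate 1. *Ebf2* did not pass at a log2 fold change of -0.89 (SE 0.36, adjusted p = 0.0991, limma voom), which was -0.63 without floxed replicate 3. With the replicate block it was -0.86 (SE 0.17) and passed (adjusted p = 0.00973), as it did after GC correction (-1.41, adjusted p = 0.0233).

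*Pdgfrb* (chromosome 18), the PDGF receptor that marks mural cells and part of the progenitors, was at 97.3, 72 and 47.6 cpm in floxed and at 11.9, 9.94 and 6.07 cpm in H3atKO pools. The lowest floxed pool was well above the highest H3atKO pool. *Pdgfrb* fell by 2.92 on the log2 scale (SE 0.43, adjusted p = 0.0149, limma voom), which is 7.58-fold lower. After GC correction it was -1.65 (SE 0.19, adjusted p = 0.0118), with the genotypes still apart. The adjusted p was 0.0695 without floxed replicate 2, 0.0508 without H3atKO replicate 1 and 0.0665 without H3atKO replicate 3, while the log2 fold change stayed between -3.19 and -2.66 over all 6 such fits.

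**Figure D2:**
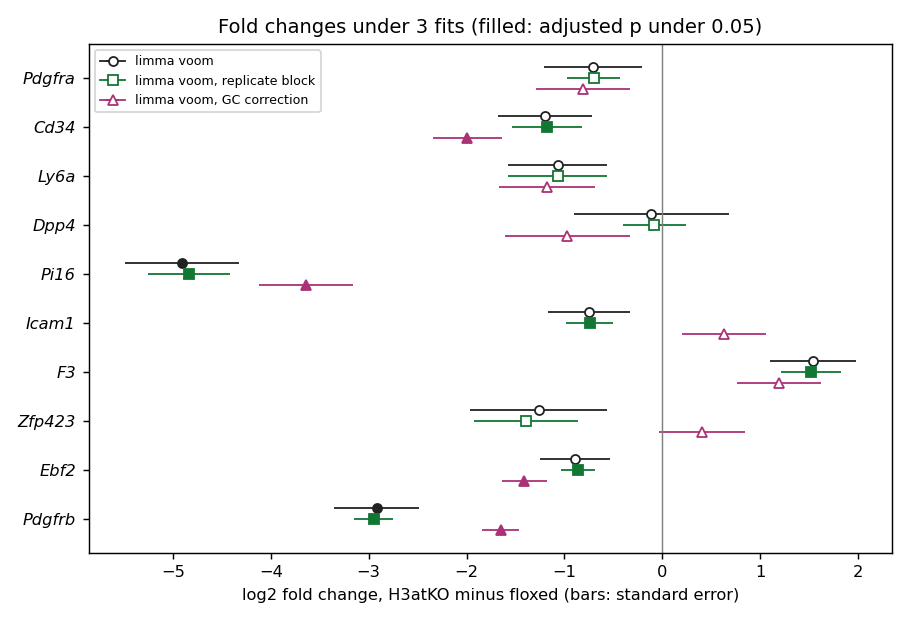
Log2 fold change (H3atKO minus floxed, bars are standard errors) of each gene by limma voom (black), with the replicate number as a block (green) and after GC correction (purple), with filled markers at an adjusted p under 0.05. *Pi16* and *Pdgfrb* are filled in all 3 fits, *F3* lies right of 0 in all 3, and *Icam1* and *Zfp423* change sides with the GC correction.

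The number of the 10 genes that passed depended on the fit. With the replicate block 1 gene was higher (*F3*) and 5 were lower (*Cd34*, *Pi16*, *Icam1*, *Ebf2* and *Pdgfrb*), where 24.8% of all genes were called higher and 28.7% lower. After GC correction 0 were higher and 4 were lower (*Cd34*, *Pi16*, *Ebf2* and *Pdgfrb*), against 5.55% and 3.06% of all genes. With both together these 4 remained the only calls of the 10, against 13.1% higher and 9.71% lower. On GC-corrected values the genotypes did not overlap in 4 genes lower in H3atKO (*Cd34*, *Pi16*, *Ebf2* and *Pdgfrb*) and in 1 higher (*F3*), where the shares over all genes were 19% and 20%. By edgeR's quasi-likelihood test 1 was higher and 2 were lower (12.8% and 18.4% of all genes), by DESeq2 1 and 3 (19.6% and 23.2%), and with sample quality weights 1 and 5 (26.7% and 29.7%). With library sizes alone 8 were lower and 0 higher, with 37.9% of all genes lower and 2.04% higher and a median over all genes of -0.94. No gene of the 10 passed without floxed replicate 2, a fit in which 1 gene (0.00673%) was called higher and 0 (0%) lower in the whole table by limma voom, with 4333 genes at an unadjusted p under 0.05. Without H3atKO replicate 1 only *Pi16* was called lower and *F3* was called higher (adjusted p = 0.0462), where 0.317% of all genes were lower and 1.34% higher. Without H3atKO replicate 3 *Pi16* was the only call of the 10, where 0.134% of all genes were lower and 0.584% higher. Without floxed replicate 3 the calls were 3 lower (*Pi16*, *Zfp423* and *Pdgfrb*) and 1 higher (*F3*, adjusted p = 0.0401), against 25.9% and 18.5% of all genes. *Pi16*, *Icam1* and *Pdgfrb* then had log2 fold changes of -4.94, -0.83 and -3.19.

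Between genes, levels were compared per kb of exon. In floxed pools *Ly6a* was the highest, at 215 ± 154 cpm per kb (SD, n = 3), and its range did not overlap that of *F3*, the next gene, at 33.9 ± 3.08. Then came *Cd34* at 29.9 ± 22.7, *Dpp4* at 16.6 ± 18.4, *Pdgfrb* at 13.2 ± 4.54, *Pdgfra* at 12.8 ± 9.61, *Pi16* at 11.3 ± 4.23, *Ebf2* at 8.62 ± 3.01, *Icam1* at 4.97 ± 1.52 and *Zfp423* at 2.95 ± 1.9 cpm per kb. From *F3* downward the ranges of all neighbours in this order overlapped. The place of *Dpp4* rested on floxed replicate 3. Over floxed replicates 1 and 2 alone the order was *Ly6a* (126), *F3* (33.9), *Cd34* (16.8), *Pdgfrb* (15.5), *Pi16* (11.8), *Pdgfra* (7.32), *Ebf2* (7.09), *Dpp4* (5.99), *Icam1* (5.3) and *Zfp423* (3.9 cpm per kb). In H3atKO pools *F3* headed the order at 112 ± 63.9, overlapping with *Ly6a* at 92.1 ± 37.3. They were followed, without overlap, by *Dpp4* at 11.9 ± 7.34 and *Cd34* at 11 ± 1.01, and *Pdgfra* at 6.81 ± 1.96 lay below *Cd34* without overlap. *Ebf2*, *Icam1*, *Pdgfrb* and *Zfp423* came next at 4.64 ± 1.18, 3.06 ± 1.29, 1.7 ± 0.539 and 1.1 ± 0.43 cpm per kb, with overlap between neighbours. *Pi16* was last at 0.39 ± 0.209 cpm per kb, below *Zfp423* in all 3 pools.

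Ratios of 2 genes within a pool do not depend on the scaling factor. The log2 ratio of *Pdgfra* to *Pdgfrb* was -0.58, 0.18 and 2.33 in floxed and 2.31, 2.47 and 3.90 in H3atKO pools. Floxed replicate 3 overlapped with the H3atKO pools, and the means differed by 2.25 (two-sided exact permutation test, p = 0.2, where 3 against 3 cannot go below 0.1). The log2 ratio of *Dpp4* to *Icam1*, the interstitial against the committed marker, was 0.46, 1.07 and 3.67 in floxed and 1.80, 2.31 and 3.09 in H3atKO pools, a difference of 0.67 (exact p = 0.6). The log2 ratio of *Zfp423* to *Ebf2* was -0.53, -1.83 and -3.80 in floxed and -2.61, -1.88 and -2.75 in H3atKO pools, a difference of -0.36 (exact p = 0.7). With both genes corrected for GC content these differences became 0.85 (exact p = 0.3), -1.60 (exact p = 0.1) and 1.84 (exact p = 0.1), so that the last 2 changed direction. In these 2 pairs the transcripts differ in GC content, with 42.2% for *Dpp4* and 55.4% for *Icam1*, and 56.7% for *Zfp423* and 45% for *Ebf2*. None of the 3 comparisons can pass 0.05 by this test with 3 pools against 3, with or without adjustment over them. Between pools of the same replicate number the *Pdgfra* to *Pdgfrb* ratio was higher in H3atKO in all 3 pairs, by 2.89, 2.29 and 1.57, and after GC correction by 1.20, 1.00 and 0.36 (the smallest two-sided exact p of 3 pairs is 0.25). The pairs gave 1.34, 1.24 and -0.57 for *Dpp4* to *Icam1* and -2.08, -0.06 and 1.04 for *Zfp423* to *Ebf2*. After GC correction they gave -1.35, -0.86 and -2.59 for *Dpp4* to *Icam1*, lower in H3atKO in all 3 pairs. For *Zfp423* to *Ebf2* they gave 0.60, 1.99 and 2.93, higher in all 3.

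**Figure D3:**
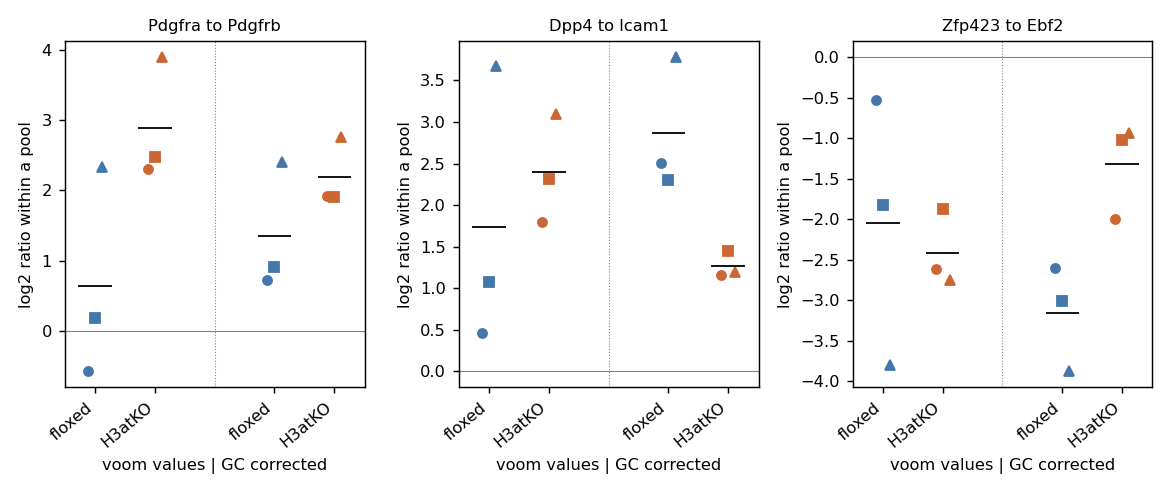
Log2 ratio of 2 genes within each pool, from voom values (left side of each panel) and GC-corrected values (right side), for 3 floxed (blue) and 3 H3atKO (orange) pools, with circles, squares and triangles for replicates 1, 2 and 3 and black lines at the means. The mean difference in *Pdgfra* to *Pdgfrb* keeps its direction (2.25 and 0.85), and the other pairs reverse.

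Floxed replicate 3 was the highest of the 6 pools in *Dpp4*, *Cd34*, *Pdgfra*, *Ly6a* and *Ebf2*. Its fold differences are given against the mean log2 level of floxed replicates 1 and 2. They were 6.33-fold in *Dpp4*, 3.35-fold in *Cd34*, 3.29-fold in *Pdgfra*, 3.12-fold in *Ly6a* and 1.68-fold in *Ebf2*. After GC correction they were 4.25, 2.31, 3.11, 2.94 and 1.31-fold in the same order. *F3* stood at 1.01-fold, *Pi16* and *Icam1* stood at 0.923 and 0.846-fold, and *Zfp423* and *Pdgfrb* at 0.274 and 0.569-fold. After GC correction these were 1.68-fold for *Pi16*, 1.63 for *Icam1*, 0.619 for *Zfp423*, 1.04 for *Pdgfrb* and 0.848 for *F3*. The median ratio over all genes was 0.978-fold, and 1.42% of them were as far above as *Dpp4* or farther. This share was 4.21% for *Cd34*, 4.37% for *Pdgfra*, 4.8% for *Ly6a* and 17.4% for *Ebf2*. After GC correction it was 2.87% for *Dpp4*, 9.14% for *Cd34*, 5.35% for *Pdgfra*, 6.09% for *Ly6a* and 26.8% for *Ebf2*. The median of the general fibroblast list was 4.24-fold, and those of the macrophage and adipocyte lists were 2.68 and 0.214-fold. The labels give no reason for this difference, and its part in the levels of these genes was not tested.

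**Figure D4:**
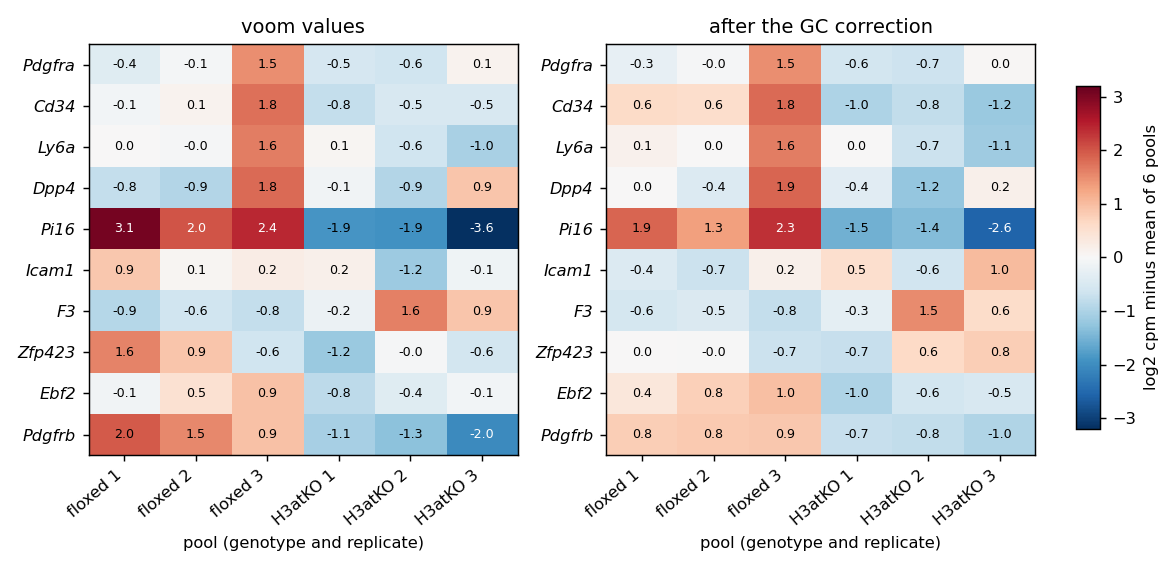
Log2 cpm of each gene in each pool minus the gene's mean over the 6 pools, from voom values (left) and after GC correction (right), with red above and blue below the mean. *Pi16* and *Pdgfrb* are red in all floxed and blue in all H3atKO pools on both sides, whereas *Pdgfra*, *Cd34*, *Ly6a*, *Dpp4* and *Ebf2* have their highest value in floxed replicate 3.

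Wider lists of the same cell types and pathways held 82 further genes, of which 79 passed the filter. By limma voom 2 were higher and 16 were lower in H3atKO, where 9.42% of all genes were called higher and 7.07% lower. The median log2 fold change of the 79 genes was -1.01, against -0.09 over all genes. Negative medians were not particular to stromal lists, with -1.53 for the adipocyte and -1.60 for the endothelial list. With the replicate block 6 were higher and 39 lower, against 24.8% and 28.7% of all genes. After GC correction 1 was higher and 14 were lower, against 5.55% and 3.06% of all genes, and the medians were -0.59 and 0.03. Without floxed replicate 3 the counts were 3 higher and 32 lower, against 18.5% and 25.9% of all genes. These shares also stand beside the counts of the single lists below.

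Among 12 further genes of DPP4+ interstitial progenitors 3 were lower and 0 higher. *Cd248*, which encodes the surface protein endosialin, fell from 29.2 ± 9.15 to 1.2 ± 0.519 cpm (log2 fold change -4.57, SE 0.56, adjusted p = 0.00999), but not past the threshold after GC correction (-2.14, adjusted p = 0.16). *Mfap5*, a microfibril protein, fell by 1.86 on the log2 scale (SE 0.41, adjusted p = 0.0328, limma voom). Of the 12 genes listed for committed preadipocytes 10 were tested, 2 fell and 1 rose. The list median was -0.17, and 0.75 after GC correction, and under the replicate block 4 genes were lower and 3 higher. *Ccn5*, a secreted matricellular protein, had the largest fall (-5.65, SE 1.40, adjusted p = 0.0394), and *Ggt5*, a gamma-glutamyltransferase, fell by 2.50 (SE 0.39, adjusted p = 0.0177). *Cebpb*, an early factor of adipocyte differentiation, rose by 1.88 (SE 0.46, adjusted p = 0.0393), from 3.01 ± 1.56 to 10.6 ± 3.11 cpm. The size of this rise depended on the processing. It was 5.06 after GC correction (adjusted p = 0.02, limma voom) and 1.03 with library sizes alone (adjusted p = 0.12, limma voom). The transcript has a GC content of 67.2%.

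Of the CD142+ population, 2 of the 6 further genes listed fell and 0 rose, with a list median of -0.06. The other 4 did not pass, with log2 fold changes of 0.45 for *Meox2*, 0.18 for *Abcg1*, 0.11 for *Fmo2* and -0.24 for *Clec11a*. The falls were in the matrix proteins *Bgn*, from 322 ± 17.7 to 61.1 ± 3.51 cpm (log2 fold change -2.40, SE 0.21, adjusted p = 0.00793), and *Mgp* (-2.14, SE 0.43, adjusted p = 0.0281). No gene of the 8 tested ligands, inhibitors and adhesion partners of tissue factor and ICAM1 passed by limma voom, with 2 lower and 1 higher under the replicate block.

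The mural cell list had the lowest median of the 8 lists, -2.33, with 5 of 12 genes lower and 0 higher, 10 lower and 1 higher under the replicate block, and 3 lower after GC correction. The list did not move as a whole. *Rgs5* stood at 305 ± 119 cpm in floxed and 583 ± 132 cpm in H3atKO pools (log2 fold change 0.98, adjusted p = 0.0703, limma voom). It was the gene called higher under the replicate block (0.98, adjusted p = 0.0114), and was at 0.02 after GC correction. *Abcc9* also had a positive log2 fold change (0.51, adjusted p = 0.284, limma voom). *Cspg4*, the pericyte proteoglycan NG2, fell by 3.64 (SE 0.92, adjusted p = 0.0411), but did not pass after GC correction (-1.52, adjusted p = 0.0534). *Mcam*, an adhesion molecule of vessel cells, fell by 3.14 (SE 0.62, adjusted p = 0.0269). Of the general fibroblast list 2 of 12 genes were lower and 0 higher, namely the matrix metalloproteinase *Mmp2* (-3.47, SE 0.46, adjusted p = 0.012) and the lysyl oxidase *Loxl1* (-2.38, SE 0.49, adjusted p = 0.0288), and neither passed after GC correction (adjusted p = 0.102 and 0.974). None of 7 PDGF ligands and signalling partners passed by limma voom, and 3 were lower under the replicate block.

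Of 12 genes that act with EBF factors or *Zfp423* or in BMP signalling 2 were lower and 1 was higher. *Bmp4*, a ligand that commits progenitors to the adipocyte lineage, fell from 4.2 ± 1.4 to 0.486 ± 0.0244 cpm (log2 fold change -2.98, SE 0.61, adjusted p = 0.0286), and the co-repressor *Tle3* fell by 2.06 (SE 0.54, adjusted p = 0.0436), though not past the threshold after GC correction (-1.18, adjusted p = 0.0887). *Bmpr1a*, a BMP receptor, rose by 1.00 (SE 0.27, adjusted p = 0.0448), but was at 0.05 after GC correction (adjusted p = 0.886).

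**Figure D5:**
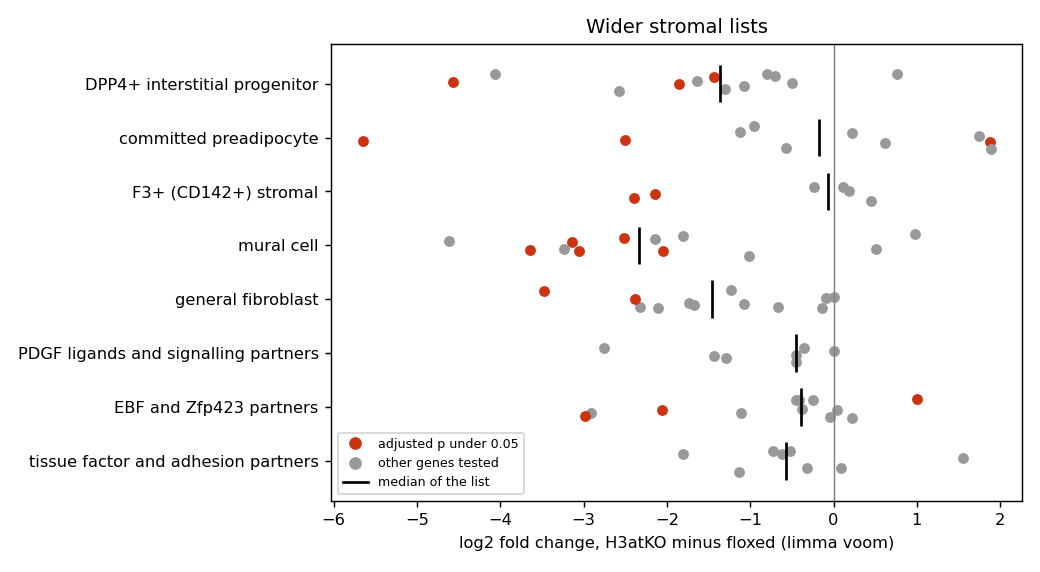
Log2 fold change by limma voom of each tested gene of the 8 wider stromal lists (points, red at an adjusted p under 0.05), with black lines at the median of each list. The mural cell list has the lowest median (-2.33), and 16 of the 18 red points lie left of 0.

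Lists of other cell types varied between pools as well. The macrophage list summed to 440 to 2303 cpm in floxed and 348 to 601 cpm in H3atKO pools with 4 of 8 genes lower, and the Schwann cell list to 95.9 to 123 and 44.8 to 65.1 cpm with 2 of 5 tested genes lower. After GC correction 0 genes of both lists were called. Without floxed replicate 3 the floxed macrophage sums were 440 and 731 cpm, which overlapped with H3atKO. In that fit 4 macrophage genes were still called lower and 1 higher, and 4 Schwann cell genes were lower. Of all genes, 25.9% were then called lower and 18.5% higher. The B cell list ranged from 4.14 to 135 cpm in floxed and from 4.49 to 575 cpm in H3atKO pools, and the skeletal muscle list from 683 to 2865 and from 26 to 3782 cpm, with 0 genes called in either. No gene of these lists or of the adipocyte, endothelial, T cell and mesothelial lists was at 0 in all pools. The keratinocyte list (1.1 to 4.24 cpm, with *Dsg3* at 0) and the mesothelial list (3.42 to 4.81 cpm) were near 0. By limma voom the adipocyte list had a median log2 fold change of -1.53 with 0 of 8 genes called, and -0.60 after GC correction. Without floxed replicate 3 its median was -2.12, with 6 genes lower. The endothelial median was -1.60, and -0.87 after GC correction. Medians were positive for the B cell (1.96), T cell (1.81) and keratinocyte (1.00, 1 gene tested) lists. The part of these cell types in the levels of the 10 genes was not tested.

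The genes whose levels ran most like each member were found over the 6 pools by the root mean square difference of centred log2 values, among 11154 protein-coding genes. This is a description of 6 points that share genotype, library and base composition. *Pi16* was nearest to *Cd248* (0.271) and *Nbl1* (0.363), and *Pdgfrb* to *A4galt* (0.122) and *Sgsm2* (0.185). *F3* was nearest to *Lrrc39* (0.183) and *Btnl9* (0.246), and *Dpp4* to *Prkg2* (0.235) and *Gxylt2* (0.245). The nearest genes were *Qpct* and *Abca6* for *Pdgfra*, *Loxl2* and *Lgi2* for *Cd34*, *Adamts15* and *Layn* for *Ly6a*, *Tor4a* and *H2afj* for *Icam1*, *Dok4* and *Tcf15* for *Zfp423*, and *Enpp3* and *Zfhx4* for *Ebf2*, at 0.0729 to 0.209. With GC-corrected values only *Tor4a* and *Dok4* of these 20 stayed in the first place, and *Tcf15* moved to place 8189.

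Genes on the opposite strand overlap *Pdgfra*, *Dpp4*, *Pi16*, *Cd34*, *Ebf2* and *Icam1* in GENCODE M21. The libraries were stranded, but whether the counting used the strand is not given in the sources used here, so reads of these partners may be included in the 6 genes.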

How the data were processed

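RNA from IngWAT was sequenced in 3 floxed and 3 H3atKO pools of 2 or 3 mice. Per the paper's methods and the submitters' processing notes, the authors selected poly(A) RNA for stranded libraries, trimmed reads with cutadapt 1.3, aligned them to GRCm38 with STAR 2.4.2a and counted them per Ensembl gene with HTSeq 0.6.1. The authors deposited counts per gene, neither normalized nor filtered, 1 file per sample, and the tallies of reads given to no gene were kept apart.

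Symbols and positions came from GENCODE M21 (46005 of 46517 identifiers matched), and promoters from RefSeq. In R 4.3.3, genes reaching 1 cpm in 1 or more samples entered the fit, libraries were scaled with TMM (edgeR 4.0.16) and genotypes were compared by limma 3.58.1 (voom, moderated test, Benjamini-Hochberg adjusted p under 0.05). A fold change is H3atKO minus floxed on the log2 scale. The GC correction subtracted from each sample a robust loess curve (span 0.3) of its deviations from the gene mean on transcript GC content, which also removes any genotype effect that follows GC content. The p-values measure the spread between these pools, and the floor of 3 counts covers counting error only. The fits were also run on simulated counts with a common dispersion and known fold changes. The simulation held no GC-linked sample effect, no shift in library composition and no outlying pool. It therefore cannot show how the fits handle these features.

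All 10 genes are named. From each wider list the up to 2 largest rises and falls past the threshold are named, and the 2 nearest genes of each member by level, among protein-coding genes with a mean of at least 1 log2 cpm. Some genes that did not pass by limma voom are also named for the mural cell and CD142+ lists. The 10 genes, the lists, the tests and the alternatives, among them DESeq2 1.42.0 and edgeR's quasi-likelihood test, were chosen with earlier results of these data known. The order of levels without floxed replicate 3 and the differences of single replicate pairs were added after the data had been seen. Replicate numbers are shared by the genotypes in the labels. Deviations from the group mean correlated between samples of the same number (r = 0.51, 0.389 and 0.264 over 14967 genes), and the number was therefore also used as a block. What a number stands for is not given in the labels.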

Additional observations from a re-analysis of the deposited data

How the results depend on the processing

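In the fits that left out 1 pool each, the log2 fold changes ranged from -5.25 to -4.39 for *Pi16* (past the threshold in 5 of 6), from -3.19 to -2.66 for *Pdgfrb* (3 of 6), from 1.06 to 2.01 for *F3* (2 of 6), from -1.87 to -0.76 for *Zfp423* (1 of 6), from -1.54 to -0.61 for *Cd34*, from -1.16 to -0.63 for *Ebf2*, from -1.39 to -0.52 for *Ly6a*, from -1.07 to -0.40 for *Icam1*, from -1.08 to -0.13 for *Pdgfra* and from -0.60 to 0.79 for *Dpp4*, which was positive without floxed replicate 3 (0.79) and without H3atKO replicate 2 (0.29). The counts ranged from 0 to 1 higher and 0 to 3 lower of the 10 genes, from 0 to 3 and 0 to 32 of the wider genes and from 1 to 2729 and 0 to 3828 of all genes. The differences in log2 ratio ranged from 1.64 to 3.09 (*Pdgfra* to *Pdgfrb*), 0.034 to 1.64 (*Dpp4* to *Icam1*) and -1.24 to 0.40 (*Zfp423* to *Ebf2*, the latter without floxed replicate 1). The GC correction reversed *Dpp4* to *Icam1* (-1.60) and *Zfp423* to *Ebf2* (1.84), and *Icam1* (0.63) and *Zfp423* (0.41), also together with the replicate block (0.68 and 0.31), and sample quality weights reversed *Dpp4* (0.56). *Cd34* passed with DESeq2 (-1.39), library sizes alone (-2.04), quality weights (-0.77), the replicate block (-1.18), the GC correction (-1.99) and both together (-1.98). *Ebf2* passed with library sizes alone (-1.71), quality weights (-0.97), the block (-0.86), the GC correction (-1.41) and both (-1.39). *F3* passed with edgeR (1.72), DESeq2 (1.79), RLE factors (1.61), at least 10 counts in every sample (1.43), quality weights (1.45) and the block (1.52). With library sizes alone *Pdgfra* (-1.56), *Ly6a* (-1.92), *Icam1* (-1.64) and *Zfp423* (-2.09) passed too, *Zfp423* also with quality weights (-1.50) and *Icam1* with the block (-0.74). The replicate block changed no other call among the 10 genes.

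Of the 10 genes 1 was higher with edgeR, DESeq2, RLE factors, at least 10 counts in every sample, quality weights, the block and a threshold of 0.1. Among all genes, 1622 of 14967 tested were higher with RLE factors and 1575 of 12466 with at least 10 counts in every sample. Values over all genes for the other settings are given above or below. Lower were 8 with library sizes alone, 5 with quality weights, 5 with the block, 4 with the GC correction, 4 with both, 1 at a threshold of 0.01 and 4 at 0.1. Of the wider genes, the numbers higher and lower were 5 and 32 with DESeq2, 0 and 51 with library sizes alone, 4 and 39 with quality weights, 6 and 39 with the block, 8 and 25 with block and GC correction, 0 and 2 at 0.01 and 4 and 35 at 0.1, while 1 was higher with the GC correction, 0 without a filter, and 28 were lower with edgeR. Of all genes, 2935 and 3465 were called with DESeq2, 306 and 5667 with library sizes alone, 4003 and 4440 with quality weights, 3717 and 4290 with the block, 830 and 458 with the GC correction, 65 and 17 at 0.01 and 2804 and 3182 at 0.1, with 2749 lower by edgeR and 1864 lower at 10 counts. The cause of these differences was not tested.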
